A study of Mus musculus with 6 samples.

Results

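This report covers the circRNAs on the mouse array that carry the type label intronic, antisense or intergenic, and not exonic or sense overlapping. They were taken from 3 lists. These were the deposited table of circRNAs lower in HuD KO, the deposited table of circRNAs higher in HuD KO, and a list of circRNAs that came down with HuD in an immunoprecipitation, called HuD-bound below, with each probe counted once. A total of 301 members were found among 14236 circRNA probes, and 155 were intronic, 67 antisense and 79 intergenic. The same lists give a type to 3056 probes in all, of which 2334 were exonic and 421 sense overlapping. The lower table held 223 members and the higher one 60, and 18 were in the list of HuD-bound circRNAs alone.

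Striatal RNA was measured in 3 HuD KO (Elavl4-/-) samples and 3 samples of WT littermates, all adult males labelled C57BL6, with 1 array per sample. No source used here says whether a sample was 1 mouse or a pool, so the p-values measure the spread between these samples. RNase R, which digests linear RNA, was applied before amplification and Cy3 labelling. The array measures whole striatal tissue, so fewer cells of a type and less RNA per cell cannot be told apart. The list of HuD-bound circRNAs came from other mice, in which myc-tagged HuD was expressed under the Camk2a promoter of forebrain neurons and then immunoprecipitated. No member and no other typed circRNA had Elavl4 as its host, so these probes give no check of the genotype.

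A circRNA is closed into a ring when a downstream splice site joins an upstream one, and the array probe lies across that junction. Most brain circRNAs are made of exons. Intronic circRNAs keep intron sequence or have an end inside an intron, antisense circRNAs lie on the strand opposite a gene, and intergenic ones lie outside the genes of the annotation used. HuD is a neuronal RNA-binding protein of the ELAV family that binds AU-rich and U-rich sequence, mainly in mRNAs, and affects their stability and translation.

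The junction probes are 60 bases long and are copied here from the deposited tables or the list, 5′ to 3′. The first set is shown because intronic probes shared sequence with exonic probes of the same host. Capitals mark runs of at least 20 bases found in another probe of the set, and mmu_circRNA_010239, mmu_circRNA_26704, mmu_circRNA_004122 and mmu_circRNA_011865 are the exonic ones.
Homer1 intronic mmu_circRNA_19101: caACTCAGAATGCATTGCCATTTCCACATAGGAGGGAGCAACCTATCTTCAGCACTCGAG
Homer1 intronic mmu_circRNA_26702: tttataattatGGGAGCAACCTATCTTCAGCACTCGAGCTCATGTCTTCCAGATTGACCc
Homer1 exonic mmu_circRNA_010239: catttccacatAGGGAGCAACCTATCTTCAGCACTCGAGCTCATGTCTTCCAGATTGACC
Homer1 exonic mmu_circRNA_26704: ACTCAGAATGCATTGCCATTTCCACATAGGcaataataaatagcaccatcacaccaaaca
Crebrf intronic mmu_circRNA_19182: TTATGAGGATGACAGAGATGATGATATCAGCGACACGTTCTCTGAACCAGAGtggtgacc
Crebrf intronic mmu_circRNA_19183: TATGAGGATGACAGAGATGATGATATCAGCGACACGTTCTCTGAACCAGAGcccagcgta
Crebrf exonic mmu_circRNA_004122: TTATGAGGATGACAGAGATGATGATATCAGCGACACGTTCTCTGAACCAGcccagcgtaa
Zfp644 intronic mmu_circRNA_39099: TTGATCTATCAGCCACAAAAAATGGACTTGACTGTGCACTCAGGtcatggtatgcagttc
Zfp644 intronic mmu_circRNA_39100: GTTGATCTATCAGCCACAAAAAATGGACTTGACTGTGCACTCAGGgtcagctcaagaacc
Zfp644 intronic mmu_circRNA_39101: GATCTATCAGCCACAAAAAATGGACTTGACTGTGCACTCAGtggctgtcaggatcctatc
Zfp644 exonic mmu_circRNA_011865: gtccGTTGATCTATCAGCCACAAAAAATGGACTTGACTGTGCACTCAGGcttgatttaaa

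The second set holds an intronic and an intergenic member with strong probe signal, whose probes each contained the same stretch at 2 places, marked by capitals. The probe of the circRNA of XLOC_027457 repeated 21 bases and that of mmu_circRNA_19314 repeated 24. No other typed probe held a repeat of 20 bases or more.
XLOC_027457 intronic mmu_circRNA_19555: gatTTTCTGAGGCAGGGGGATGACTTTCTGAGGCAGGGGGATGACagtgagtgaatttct
Intergenic mmu_circRNA_19314: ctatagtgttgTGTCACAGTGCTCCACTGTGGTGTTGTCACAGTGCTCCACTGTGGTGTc

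The third set is an intronic and an antisense circRNA given for the same interval at Mir680-2, a microRNA gene. The capitals mark the part of each probe that is the reverse complement of the other, which is the whole of both.
Mir680-2 antisense mmu_circRNA_19508: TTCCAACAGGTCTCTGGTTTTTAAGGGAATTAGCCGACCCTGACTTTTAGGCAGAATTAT
Mir680-2 intronic mmu_circRNA_19507: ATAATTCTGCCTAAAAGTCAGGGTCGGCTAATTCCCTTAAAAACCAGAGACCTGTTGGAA

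The fourth set holds members described below for the size of their change or for their host, with no part marked.
Dlg4 antisense mmu_circRNA_23603: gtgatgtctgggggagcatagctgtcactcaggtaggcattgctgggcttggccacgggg
Rian antisense mmu_circRNA_000113: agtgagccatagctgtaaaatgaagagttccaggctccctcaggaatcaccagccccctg
Cdr1 antisense mmu_circRNA_001946: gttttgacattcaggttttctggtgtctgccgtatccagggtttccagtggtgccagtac
Intronic mmu_circRNA_26612 with no host given: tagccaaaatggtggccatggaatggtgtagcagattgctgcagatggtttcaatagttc

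Levels below are on the log2 scale after background correction, with the 75th percentile of circRNA probes on each array set to 0. Changes are HuD KO minus WT on that scale. Levels of different probes are not compared one by one, because probes differ in how well they hybridize. Over 13445 tested probes the median change was -0.11, and other scalings put it between -0.89 and 0.41, so small changes are to be read against that shift. HuD KO replicate 1 had the fewest circRNA probes well above background (84.0%), and the other arrays had 93.8% to 96.7%. The arrays came from 3 scans, none of which held both groups, so scan and genotype cannot be told apart.

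The type labels were first checked against a RefSeq gene table of the GRCm38 build. The tables name no build, but 99.7% of exonic circRNAs lay wholly inside a gene of that table, and coordinates are printed as deposited. Of the intronic members, 94.2% lay inside a gene, and 95 of the 96 whose host strand was known lay on the strand of the host. All 44 antisense members whose host strand was known lay on the opposite strand. The host was found in this table for 126 intronic and 59 antisense members. Of these, 114 intronic and 46 antisense members lay wholly inside it, with 2313 of 2318 exonic circRNAs. Inside a gene known to be on the other strand lay 58.2% of antisense members. Inside a gene known to be on their own strand lay 76.8% of intronic members and 79.6% of exonic circRNAs. The strand was not known for all genes. Of the intergenic members, 32 of 79 (40.5%) lay inside a gene of this table, and 25 of them on the strand of the gene. The genes named for these intergenic members included Wdr49, Cacna1e, which encodes a voltage-gated calcium channel subunit, Dnah14, a dynein heavy chain gene, and Muc16, a mucin gene. The annotation behind the deposited types therefore differed from this table for those members.

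Sequence placed some intronic members beside exonic ones. A total of 17 of the 155 intronic members shared at least 20 bases of probe sequence with a listed exonic or sense overlapping circRNA. No antisense or intergenic member did. Sequences and ends were compared among the 3056 typed probes only, so partners among the rest of the 14236 circRNA probes could not be found. In 9 intronic members both ends lay within 5 bp of both ends of 1 exonic circRNA of the same host. Their hosts included Homer1, S100pbp, Ttc3, Slc38a10, R3hcc1l, Mboat2, Rtn4 and Crebrf. The intronic Homer1 circRNA mmu_circRNA_19101 (chr13:93341753-93356080, plus strand) began 2 bp before and ended 1 bp after the exonic mmu_circRNA_010239. The intronic Crebrf circRNA mmu_circRNA_19183 (chr17:26739540-26743131, plus strand) began 2 bp before the exonic mmu_circRNA_004122 and shared its end.

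In the 26 pairs with shared probe sequence, the intronic circRNA and its exonic or sense overlapping partner changed in the same direction. The difference in log2 change within a pair had a median size of 0.14 and lay between 0.02 and 0.77. The circRNA of R3hcc1l, mmu_circRNA_19224, changed by 1.62 and its exonic partner by 1.67. The Crebrf circRNAs mmu_circRNA_19182 and mmu_circRNA_19183 changed by 1.60 and 1.63, and the exonic Crebrf partner by 1.57. Such pairs share target sequence and are not independent measurements.

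**Figure D1:**
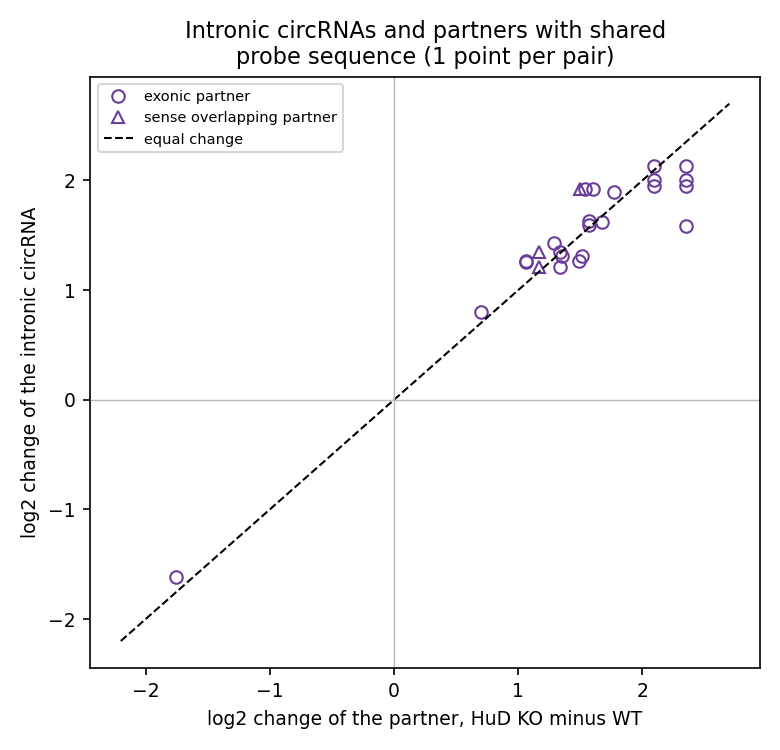
Log2 change (HuD KO minus WT) of an intronic circRNA on the vertical axis against that of an exonic or sense overlapping circRNA with at least 20 shared probe bases on the horizontal axis. Each of the 26 points is a pair, the dashed line is equal change, and the pair of lowest changes is that of Slc38a10 (-1.61 and -1.75).

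The 17 intronic members with shared sequence were listed differently from the others. Of these 17, 13 were in the higher table, 1 in the lower table and 3 in the HuD-bound list alone, with a median WT level of 1.79. The other 138 had no such partner among the typed probes. Of these, 34 were in the higher table, 94 in the lower table and 10 in the HuD-bound list alone, with a median WT level of -0.42. These counts describe the deposited lists, which were chosen on the same arrays, and no test was made.

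The HuD-bound members were tested, because the list was drawn up on immunoprecipitates of other mice. They numbered 21, of which 16 were intronic, 5 antisense and 0 intergenic. The copy of the list used here may not be complete, so these counts, the 0 included, hold for that copy. None of the 21 fell near background on any array. The tests are limma, with p adjusted by the Benjamini-Hochberg method over all 13445 probes, and a call is an adjusted p under 0.05. Of the 21, 12 (57.1%) were called, where 63.4% of all tested probes were called. The 10 called higher in HuD KO made up 47.6% of the members, against 26.2% of all probes, and the 2 called lower made up 9.52%, against 37.2%. Homer1, Tulp4 and Ube2e2 each hosted a pair of overlapping circRNAs among the 10 called higher, so these 10 are not independent measurements. Of the 573 HuD-bound exonic circRNAs tested, 44.0% were called higher and 14.3% lower, and of the 63 HuD-bound sense overlapping ones 28.6% and 12.7%. Scaling on the circRNA control probes gave 3 higher and 9 lower among the 21. Over all 13445 probes it gave 612 higher and 8480 lower. The count called in each direction thus depends on the scaling, for the members as for all probes. Without the 3 that are also in the higher table, 9 of 18 were called, 7 higher and 2 lower.

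Homer1 encodes a scaffold protein of the excitatory postsynapse. Its intronic mmu_circRNA_19101 had levels of 4.20, 4.03 and 3.48 in HuD KO and 2.99, 2.77 and 2.16 in WT. All HuD KO arrays lay above all WT arrays, and the change was 1.27 (SE 0.27, n = 3 per group, limma adjusted p = 0.00407). The second intronic Homer1 circRNA, mmu_circRNA_26702, had levels of 3.80, 3.70 and 3.26 in HuD KO and 2.60, 2.47 and 1.93 in WT. It rose by 1.25 (SE 0.23, limma adjusted p = 0.00191), and replicate 3 was the lowest array of both groups for both Homer1 circRNAs. Both probes share sequence with the exonic mmu_circRNA_010239, whose change was 1.06. Neither rise was called with scaling on control probes, where the changes were 0.48 and 0.47.

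Dlg4 encodes PSD-95, another scaffold of the excitatory postsynapse, and mmu_circRNA_23603 (chr11:70031734-70039129) lies on the minus strand, opposite to it. Its levels were 3.03, 2.86 and 2.81 in HuD KO and 2.06, 1.99 and 1.99 in WT. The groups were well apart and each was tight, with a change of 0.89 (SE 0.13, limma adjusted p = 0.000809). It was the single antisense member called higher among the HuD-bound ones, and it was not called with scaling on control probes (0.10).

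Ube2e2 encodes a ubiquitin-conjugating enzyme, and 2 intronic circRNAs of it were in the HuD-bound list. The level of mmu_circRNA_27145 (chr14:18630298-18639087, minus strand) was 3.34, 3.21 and 3.09 in HuD KO and 2.19, 2.08 and 2.15 in WT. It rose by 1.08 (SE 0.14, limma adjusted p = 0.000349), and was not called with scaling on control probes (0.29). Its neighbour mmu_circRNA_27143, which overlaps it by its end, had 0.68, 0.78 and 0.69 in HuD KO and 0.31, 0.29 and 0.27 in WT, a change of 0.42 (SE 0.13, limma adjusted p = 0.0188). The smaller change of mmu_circRNA_27143 lost its call without HuD KO replicate 2, WT replicate 1 or WT replicate 2, with the replicate block and with the scan as a random block, and it was -0.36 with scaling on control probes.

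The 3 intronic circRNAs of Tulp4, a gene of the tubby-like family, began within 2 bp and ended within 5 bp of each other on chromosome 17 near position 6137210. The HuD-bound mmu_circRNA_19175 had levels of 4.21, 4.35 and 3.80 in HuD KO and 1.63, 1.59 and 1.88 in WT, a change of 2.42 (SE 0.18, limma adjusted p = 5.41e-05). The HuD-bound mmu_circRNA_30196 had 4.94, 5.21 and 4.91 in HuD KO and 2.76, 2.95 and 3.35 in WT, a 4.01-fold rise (SE of the log2 change 0.19, limma adjusted p = 0.000102). The third, mmu_circRNA_008009, is in the higher table alone and changed by 2.40, given as a description. Both HuD-bound ones are in the higher table too, and both kept their call in all 20 alternatives tried. The other 2 typed circRNAs of Tulp4 changed by 0.40 and 0.60.

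Mboat2, a lysophospholipid acyltransferase gene, had an intronic circRNA, mmu_circRNA_19062, with levels of 2.14, 2.22 and 2.09 in HuD KO and 1.23, 1.35 and 1.46 in WT. It rose by 0.80 (SE 0.13, limma adjusted p = 0.00137), and was not called with scaling on control probes (0.02). The intronic circRNA of Ccny, a cyclin gene, mmu_circRNA_31249, changed by 2.05 (SE 0.21, limma adjusted p = 0.000153) and is in the higher table as well. Npas3, a neuronal transcription factor gene, had mmu_circRNA_25091 at -0.28, -0.49 and -1.20 in HuD KO and -1.74, -1.50 and -1.09 in WT. Its groups overlapped, and its call (0.79, SE 0.27, limma adjusted p = 0.0335) was lost in 8 of 20 alternatives. These included leaving out HuD KO replicate 1, HuD KO replicate 2, WT replicate 1 or WT replicate 2, the replicate block and the scan as a random block.

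A total of 2 HuD-bound members were called lower. The intronic circRNA of XLOC_027457 (chrX:170005573-170008613, minus strand), whose probe holds the repeat shown above, had levels of 8.04, 7.72 and 8.04 in HuD KO and 9.16, 9.23 and 9.24 in WT. It fell by 1.28 (SE 0.15, limma adjusted p = 0.000229), and the call held in all 20 alternatives. The antisense circRNA of Calm3, a calmodulin gene, mmu_circRNA_014778 (chr7:16915812-16915906, plus strand), had -1.37, -1.50 and -1.67 in HuD KO and -1.08, -1.04 and -0.77 in WT. It fell by 0.55 (SE 0.15, limma adjusted p = 0.0146), a call that quantile normalization, median scaling, no scaling and the scan as a random block each ended. Before scaling its intensities overlapped, at 69.4 to 85.5 in HuD KO and 76.5 to 83.6 in WT.

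The other 9 HuD-bound members were not called, with changes between -0.47 and 0.37. Of the antisense circRNAs of Malat1, an abundant nuclear noncoding RNA, mmu_circRNA_008347 changed by -0.37 (SE 0.21, limma adjusted p = 0.153) and mmu_circRNA_001389 by 0.10 (SE 0.28, limma adjusted p = 0.77). On HuD KO replicate 1 mmu_circRNA_001389 stood at 0.03, above the other 5 arrays, which lay between -1.12 and -0.74. The intronic circRNA of Srpk2, which encodes a kinase of splicing factors, mmu_circRNA_38252, changed by -0.47 (SE 0.25, limma adjusted p = 0.128). That of Ntrk3, which encodes a neurotrophin receptor, mmu_circRNA_41725, changed by 0.16 (SE 0.17, limma adjusted p = 0.436).

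The remaining uncalled ones were the following. The circRNA of Rnf214, a RING finger gene, mmu_circRNA_19513, changed by 0.02 (limma adjusted p = 0.931), and that of Mir8115, mmu_circRNA_24032, by 0.25 (limma adjusted p = 0.202). With no host given, mmu_circRNA_21759 changed by -0.34 (limma adjusted p = 0.155) and mmu_circRNA_26318 by 0.37 (limma adjusted p = 0.165). A missed threshold with 3 arrays per group does not show that these levels are alike.

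**Figure D2:**
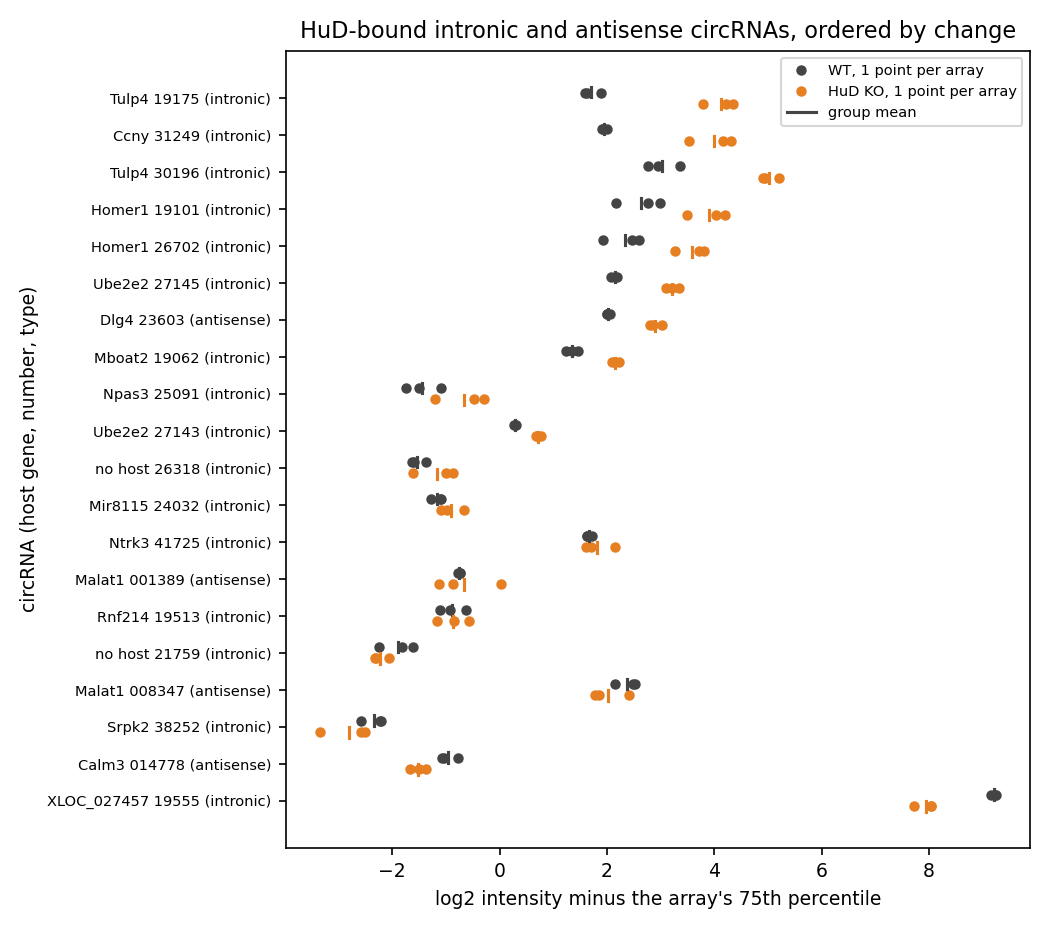
Log2 intensity minus the array's 75th percentile for 20 of the 21 HuD-bound members, with 1 point per array, vertical ticks at group means and members ordered by change. The intronic circRNAs of Tulp4, Ccny, Homer1, Mboat2 and the larger one of Ube2e2 and the antisense circRNA of Dlg4 show HuD KO arrays to the right of WT arrays, and XLOC_027457 at the bottom shows them to the left.

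The members of the deposited tables were chosen by the authors for their difference on these same arrays, by thresholds on fold change and p, so their changes are given as a description with no test. Their arrays did not overlap between groups in any of the 283, where 70.2% of all tested probes did not overlap (29.8% above and 40.4% below WT). The weakest changes in this scaling were -0.81 in the lower table and 0.81 in the higher table. In the lower table the median change was -2.27 for 95 intronic, -2.45 for 56 antisense and -2.87 for 72 intergenic members. Exonic circRNAs of the same table had a median of -1.86 and sense overlapping ones -2.25. In the higher table the medians were 1.37 for 47 intronic, 1.37 for 6 antisense members and 1.32 for exonic circRNAs, and the 7 intergenic members lay between 0.81 and 2.30.

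These sizes differed between background settings. With normexp background correction and an offset of 50, the median change of the 79 intergenic members relative to all probes was -0.94, where it was -2.71 in the scaling used here. For the antisense members it was -0.95 in place of -1.96, and for the intronic members -0.82 in place of -1.54. With that correction the medians of the 3 types lay close together. That setting also starts from the median signal of the spot, and which of these choices moved the medians was not tested. The median WT level was -0.36 for intronic, -0.40 for antisense and -0.99 for intergenic members.

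**Figure D3:**
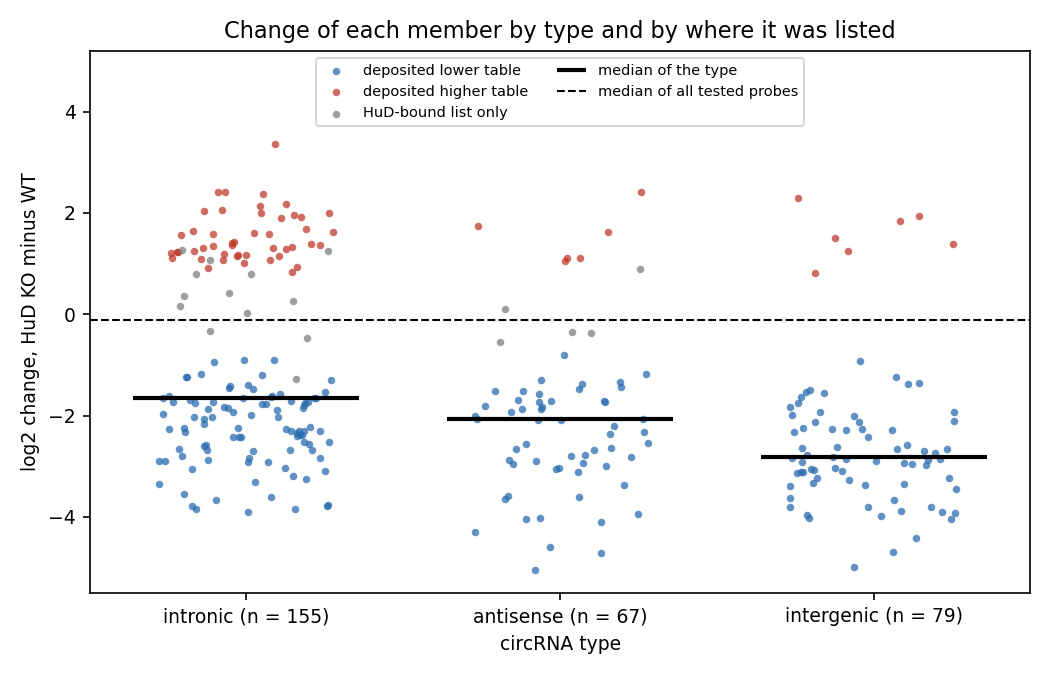
Log2 change (HuD KO minus WT) of each of the 301 members by type, coloured by the list that held it, with a bar at the type median and a dashed line at the median of all tested probes (-0.11). The type medians are -1.65, -2.08 and -2.82, and the gap around 0 follows from how the deposited tables were chosen.

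Detection differed between types as well. Of the lower-table members, 31 of 72 intergenic (43.1%) were not well above background on at least 1 HuD KO array, with 14 of 56 antisense and 17 of 95 intronic (17.9%). In the same table the share was 21.3% for sense overlapping and 8.76% for exonic circRNAs. On HuD KO replicate 1, 56.9% of the intergenic members were well above background, on replicate 2 87.5% and on replicate 3 93.1%. On the WT arrays all lower-table members were well above background. All of these members fell short on HuD KO replicate 1, the array with the lowest detection over all circRNA probes. Without it the counts were 11 intergenic, 4 antisense and 5 intronic members and 19 of 890 exonic circRNAs, as computed after seeing the data. Without that array the median change of the lower-table intergenic members was -2.75 and that of the intronic ones -2.12.

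**Figure D4:**
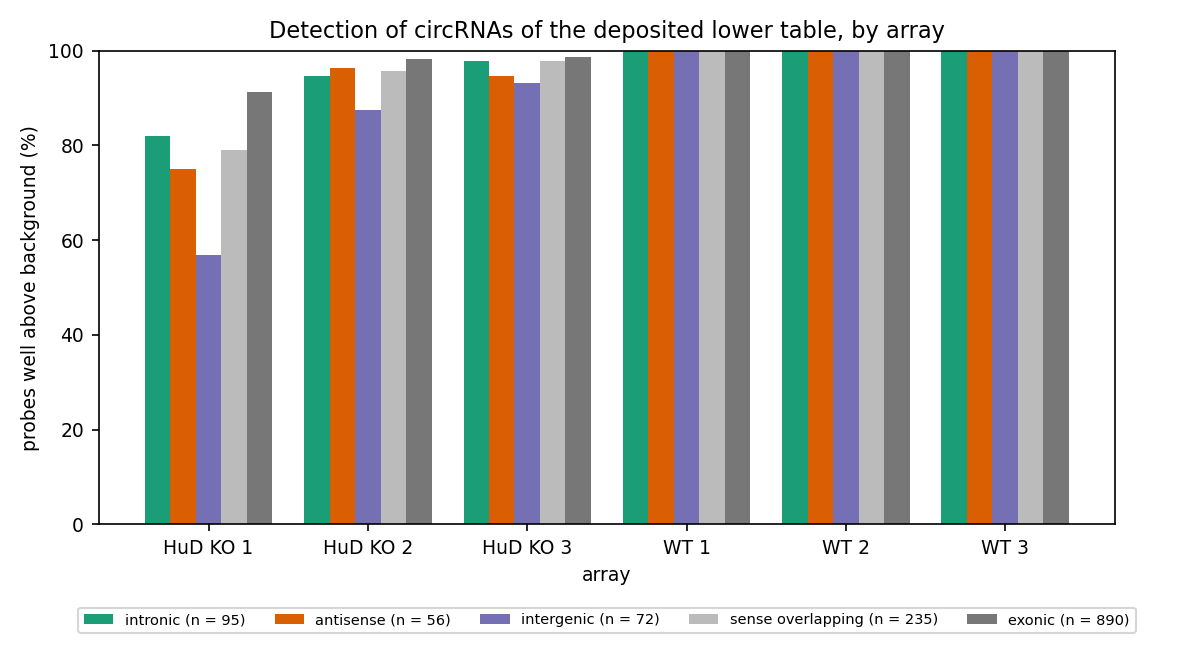
Percentage of lower-table circRNAs well above background on each array, by type, with the number of circRNAs in the legend. Bars start at 0, and the lowest bar is intergenic circRNAs on HuD KO replicate 1 (56.9%).

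The HuD KO arrays also spread more than the WT arrays. Among all members the median SD was 0.35 in HuD KO and 0.15 in WT, and over all tested probes 0.22 and 0.16. HuD KO replicate 3, which was scanned on its own, was the HuD KO array nearest to WT for 166 of 223 lower-table members (74.4%) and for 40 of 60 higher-table members (66.7%). For exonic circRNAs the shares were 72.1% and 68.2%. The part of this array in the results was not tested beyond leaving it out, which moved the lower-table medians to -2.37, -2.69 and -2.99 for intronic, antisense and intergenic members.

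A total of 6 members were not well above background on any HuD KO array, so they have only a bound. The intergenic mmu_circRNA_27894 was at least 10.7-fold lower and mmu_circRNA_29728 at least 8.74-fold lower in HuD KO. The circRNA antisense to Col19a1, a collagen gene, was at least 8.32-fold lower. The other bounds lay between 5.96-fold and 7.17-fold.

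Among antisense members of the lower table, the largest change of those above background on all arrays was that of mmu_circRNA_000113, antisense to Rian, a maternally expressed noncoding RNA (chr12:109603917-109603990, minus strand). Its levels were -1.66, -1.27 and -0.57 in HuD KO and 3.97, 3.66 and 3.00 in WT, a change of -4.71. With normexp the change was -3.99. The circRNA antisense to Trim21, an intracellular antibody receptor gene, mmu_circRNA_19469 (chr7:102563267-102563363, plus strand), had -0.99, -0.85 and 1.14 in HuD KO and 4.36, 4.54 and 4.17 in WT. In both, HuD KO replicate 3 was the highest HuD KO array and still below all WT arrays.

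The circRNA antisense to Dstn, which encodes the actin-severing protein destrin, mmu_circRNA_010498, had -3.82, -3.80 and -0.70 in HuD KO and 0.82, 1.24 and 1.44 in WT. Its change of -3.94 thus averages 1 array about 3 units from the other two. With normexp the change was -2.36. The antisense circRNAs of Zfhx3, a transcription factor gene, Trim21 and Tubb5, a tubulin gene, are named for their strong probe signal in WT, which depends on the probe as well as on the RNA. The Zfhx3 circRNA mmu_circRNA_005434 (chr8:108793733-108793819, minus strand) had 2.37, 2.31 and 3.62 in HuD KO and 5.26, 5.60 and 5.49 in WT, and the Tubb5 circRNA was 4.01-fold lower.

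The circRNA antisense to Cdr1, mmu_circRNA_001946 (chrX:61183247-61186174, plus strand), is the abundant brain circRNA known for its many miR-7 sites. Its levels were -0.64, -0.42 and -0.37 in HuD KO and 0.85, 1.35 and 0.41 in WT. The groups did not overlap, the WT arrays spread more than the HuD KO arrays, and the change was -1.35. With normexp it was -1.02.

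In the higher table, the circRNA antisense to Anxa13, an annexin gene, mmu_circRNA_017632, had 0.40, 0.39 and -0.18 in HuD KO and -2.01, -1.96 and -2.67 in WT, a change of 2.42 (1.43 with normexp). A pair of circRNAs antisense to Gm11892 overlapped on the minus strand, and changed by 1.11 and 1.74. In the larger of these, mmu_circRNA_36555, WT replicate 3 stood at -1.98 and the other WT arrays at -0.13 and -0.46. The antisense mmu_circRNA_24659, with no host given, changed by 1.62 (0.60 with normexp).

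Among intronic members of the lower table, Sema3f, which encodes a secreted semaphorin that guides axons, had mmu_circRNA_000895 (chr9:107691129-107691448, minus strand) at -2.52, -2.16 and -2.06 in HuD KO and 1.99, 1.71 and 1.27 in WT. The change was -3.90, and it was -2.83 with normexp. The next largest were mmu_circRNA_37906, with no host given (-3.85, and -1.88 with normexp), and mmu_circRNA_26160 of 2610307P16Rik (-3.25, and -2.10 with normexp). Named for their probe signal in WT beside XLOC_027457 were mmu_circRNA_29948 of 2810055G20Rik and mmu_circRNA_011516 of Npcd, which changed by -3.06 and -1.93.

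The largest change among the members in the higher table was that of the intronic mmu_circRNA_26612 (chr13:78231217-78235020, plus strand), with no host given. Its levels were 2.25 and 1.82 on HuD KO replicates 1 and 2 and -1.53, -1.59 and -0.82 in WT, and the spot of HuD KO replicate 3 was marked as an outlier by the scanner software and left out. The change was 3.35, and 2.65 with normexp.

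Host genes with 3 or more members were Zfp644, Phf3, Malat1, Fgfr2 and Tulp4. All 4 intronic circRNAs of Zfp644, a zinc finger gene, were higher, by 1.58 to 2.13, and 3 of them shared a start at 106634830 on chromosome 5 with the exonic circRNA shown above, which changed by 2.09. The 3 of Phf3, a PHD finger gene, were higher by 0.83 to 2.03. Fgfr2, which encodes a fibroblast growth factor receptor, had mmu_circRNA_42369 and mmu_circRNA_42368 higher by 2.37 and 1.34, both starting at 130394474 on chromosome 7. The same host label was given to mmu_circRNA_42400, which lies apart from them at chr7:132766827-132779385. It was lower, with a change of -1.75. The 3 antisense to Malat1 changed by -1.30, -0.37 and 0.10.

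A total of 60 members fell into 27 loci in which members overlapped, and in 24 of these all members changed in the same direction. The exceptions were loci of Opcml and Stag1 and a locus with no host given on chromosome 3. Opcml encodes a neuronal cell adhesion molecule. Its mmu_circRNA_43907 changed by -1.82 and its mmu_circRNA_43906 by 1.14, although both start at 28039050 on chromosome 9. Stag1 encodes a cohesin subunit, and its circRNAs mmu_circRNA_44943 and mmu_circRNA_44944 ended 41 bp apart and changed by 1.12 and -2.89. The spot of mmu_circRNA_44944 was well above background on only 2 HuD KO arrays, so the size of its fall is uncertain.

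Intergenic members have no host, so they are described by position. The largest lower changes among those above background on all arrays were those of mmu_circRNA_22745 (-3.63, and -1.76 with normexp), mmu_circRNA_35091 (-3.39, and -1.81 with normexp) and mmu_circRNA_22906 (-3.27). The last, at chr11:12075996-12093213 on the plus strand, had -1.13, -1.14 and -1.12 in HuD KO and 2.11, 2.39 and 1.93 in WT. Its HuD KO arrays had an SD of 0.01, and its change was -2.62 with normexp.

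The intergenic members named for their probe signal in WT were mmu_circRNA_19314, mmu_circRNA_24895 and mmu_circRNA_38325, and the last pair changed by -2.82 and -2.28. The levels of mmu_circRNA_19314 (chr4:3080977-3084320, minus strand), with the 24-base repeat, were 4.31, 3.78 and 3.58 in HuD KO and 7.08, 7.31 and 6.42 in WT. The change was -3.05, and -2.94 with normexp, so this value moved little with the background setting.

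Only 7 intergenic members were in the higher table. The largest change was that of mmu_circRNA_43368 (chr8:96354394-96358728, plus strand), which had 2.46, 1.65 and 2.72 in HuD KO and -0.10, -0.02 and 0.05 in WT, a change of 2.30. It lies inside the noncoding gene Gm32005 of the RefSeq table. The others named were mmu_circRNA_44722 (2.84-fold higher, with a log2 change of 0.42 with normexp) and mmu_circRNA_31474 (1.39).

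Other circRNAs of the same host in the lists were set beside the members that have them. Of 51 intronic members with such circRNAs, 32 changed in the direction of all the others, 11 opposite to all and 8 were mixed. Of 21 antisense members, 10 changed in the direction of all the others and 10 opposite to all. These counts use the sign alone and include HuD-bound members that were not called. Among the opposite ones were those of Ntrk3 (0.16) and Srpk2 (-0.47) and mmu_circRNA_008347 of Malat1 (-0.37). Among those in the direction of the others was that of Rnf214 (0.02). The sign of each of these turned in some settings. The circRNA antisense to Col19a1, with only the bound given above, was lower, and the other 3 of Col19a1 changed by 1.08 to 2.08. The intronic circRNA of Cdk13, a transcription kinase gene, changed by -2.60 and the other 4 by 1.34 to 2.61. The spot of this intronic circRNA was well above background on only 2 HuD KO arrays. The circRNAs of a host were measured on the same arrays, and most were listed for their change.

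**Figure D5:**
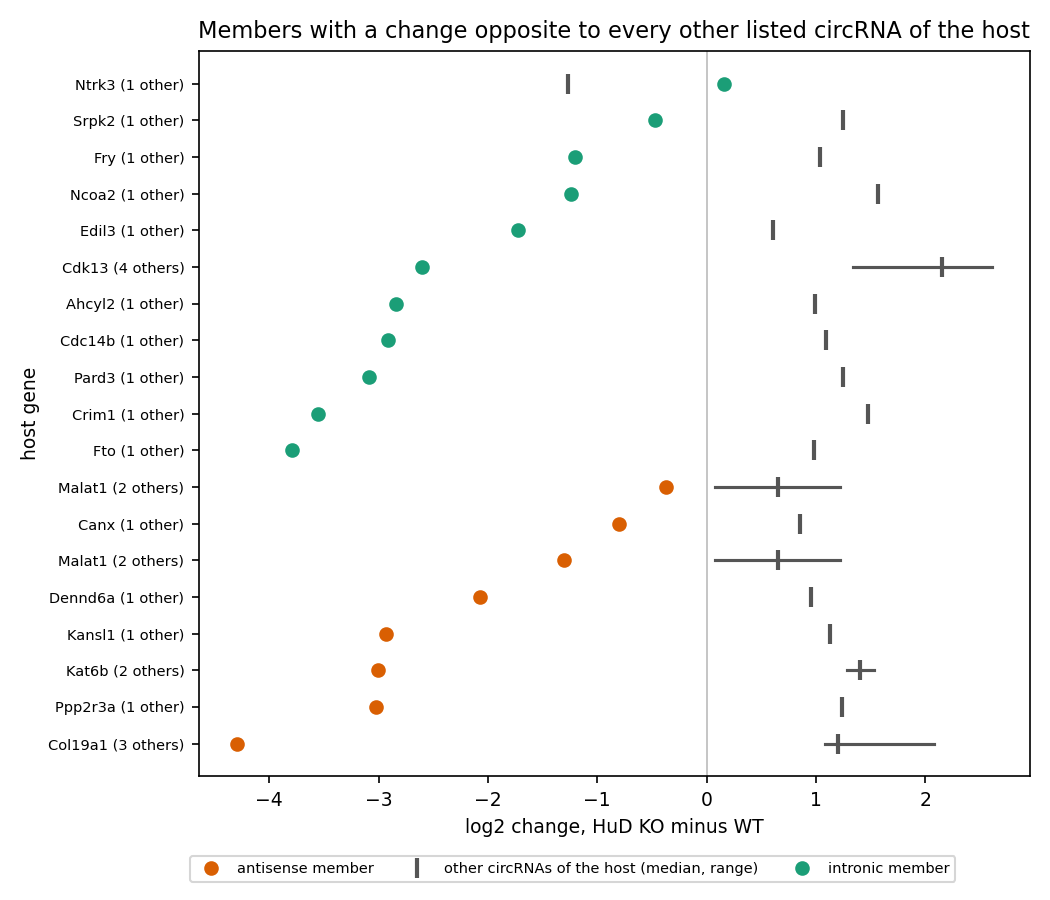
Log2 change (HuD KO minus WT) of 19 of the 21 members whose change was opposite in sign to that of every other listed circRNA of the host. Points are members, and ticks and lines are the median and range of the others. Ntrk3, the single member above 0, was not called, and its direction turned in some settings. Some other HuD-bound members shown were not called either. The Col19a1 point is the fitted value of a spot not well above background in HuD KO, for which only a bound holds. Some other points, Cdk13 among them, are of spots not well above background on every HuD KO array.

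Lists of host genes were also counted. Of 31 genes of glutamate and GABA synapses, 5 hosted 6 members, among them Homer1, Dlg4 and Gabrb1, and 19 hosted exonic or sense overlapping circRNAs. Of these 6 members, 3 were in the lower table and 0 in the higher table, where 223 of all 301 members were in the lower table. The others, of Homer1 and Dlg4, were in the HuD-bound list alone and were called higher. The intronic circRNA of Gabrb1, a GABA-A receptor subunit gene, changed by -1.65. Of 16 calcium and calmodulin genes, 2 hosted members, Calm3 among them. Of 10 long noncoding RNA genes, 4 hosted 6 members, and the 4 in the lower table were those of Rian, Gas5, Meg3 and Malat1. Of 25 genes of splicing and RNA binding, 2 hosted members (Hnrnpl and Srpk2). Of the general neuronal markers 1 hosted a member, and the lists of medium spiny neurons, astrocytes, oligodendrocytes, microglia and endothelial cells hosted 0.

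The members differed in size and origin. The median genomic span was 3563 bp for intronic, 788 bp for antisense, 7897 bp for intergenic and 12791 bp for exonic circRNAs. Spans under 200 bp made up 44.8% of antisense and 17.4% of intronic members, with 2.53% of intergenic members and 1.07% of exonic circRNAs. Short antisense members came mostly from circBase, a public catalogue, whose 29 antisense members had a median span of 87.0 bp. None of the 30 antisense members under 200 bp was in the higher table, where 6 of the 37 longer ones were.

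Sequence composition differed little between types. The median GC share of the probe was the same for intronic, antisense and exonic circRNAs and slightly lower, at 43.3%, for intergenic ones. The AU-rich pentamer ATTTA was present in the probe, on the strand of the circRNA, in 3.23% of intronic, 1.49% of antisense and 2.53% of intergenic members, with 4.24% of exonic and 4.16% of all typed probes. TATTTAT, which contains ATTTA, was in none of the 301 members and in 0.327% of typed probes. TTTTT was in 5.16%, 8.96% and 2.53% of the 3 types and in 5.14% of typed probes, and GTTTG in 1.94%, 5.97% and 7.59%, with 6.28% of typed probes. On the opposite strand ATTTA was in 2.58%, 2.99% and 3.80% of the 3 types and in 3.50% of typed probes, TATTTAT in 1 intergenic member, TTTTT in 10.3%, 2.99% and 8.86%, and GTTTG in 3.23%, 4.48% and 8.86%. A probe covers only the bases at the junction, so the rest of the circle was not searched.

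The deposited tables list up to 5 microRNAs with predicted sites for each circRNA. The 3 most often listed for members with a mature sequence in RefSeq (GRCm38.p6) are printed with the seed, bases 2 to 8, in capitals.
mmu-miR-7092-3p: uGUUCUUUguuuuguuugccuuag
mmu-miR-1187: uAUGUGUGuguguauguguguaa
mmu-miR-5110: gGAGGAGGuagagggugguggaauu
Of the 283 members in the tables, 41 (14.5%) listed miR-1187, whose seed is a UG repeat, where 0.218% of exonic and 14.2% of sense overlapping circRNAs did. By type these were 17 of 142 intronic, 16.1% of antisense and 17.7% of intergenic members. miR-5110 was listed for 13.1% of members, 2.01% of exonic and 16.9% of sense overlapping circRNAs. miR-7092-3p was listed for 15.9%, 8.05% and 21.6%. Of the members that listed miR-1187, 29 were in the lower and 12 in the higher table. These are predictions over the whole circle, which was not searched here.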

How the data were processed

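The authors deposited an Agilent Feature Extraction 11.0.1.1 file per array, whose intensity values are background-subtracted spot signals with no scaling across arrays. They also deposited a table of lower and a table of higher circRNAs with normalized log2 values, type, host, position and probe sequence. How those log2 values were normalized is not given in the sources used here. The authors' fold changes, p-values and FDR in these tables were not used. From the HuD-bound list only membership, type, position, host and sequence were taken.

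The members and gene lists were chosen with earlier results of these data known. Outlier spots (3 to 95 per array) were left out, log2 intensity was set relative to each array's 75th percentile, and 13458 probes well above background on all 3 arrays of a group were kept, of which 13445 could be fitted. Groups were compared with limma 3.58.1 (lmFit, eBayes) in R 4.3.3, without covariates, by code tested on simulated data. With 6 arrays, their small number sets how precise a value can be. The normexp alternative used the median signal of each spot, because the files hold no mean signal. A bound compares the WT mean with the mean of, per HuD KO array, the larger of the probe's level and the lowest level well above background.

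Named were the HuD-bound members, per type and table the 3 largest changes among members above background on all arrays with groups apart, per type the 3 with the highest probe signal in WT, hosts with 3 or more members, overlapping loci, and the circRNA antisense to Cdr1. Those named for shared probes, gene lists, opposite changes within a host, intergenic members inside genes, and bounds were chosen after their values were seen. Some members that these rules would name are not reported here, though they stay in all counts.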

Additional observations from a re-analysis of the deposited data

How the results depend on the processing

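The count of HuD-bound members called was within 1.5 times of 12 in every alternative, at 9 to 14, and that over all probes ranged from 6631 to 9945. The median change of HuD-bound members relative to all probes, 0.48, was 0.21 with normexp and quantile normalization, 0.27 with quantile normalization and 0.35 with probes above background on all 6 arrays. The median of intronic members, -1.54, was -0.82 with normexp, -0.86 with normexp and quantile, -1.66 with quantile and -1.43 with that stricter filter, and between -1.66 and -1.44 leaving out 1 array. That of antisense members, -1.96, was -0.95 with normexp, -1.07 with normexp and quantile, and between -2.15 and -1.86 leaving out 1 array. That of intergenic members, -2.71, was -0.94 with normexp, -0.92 with normexp and quantile, -2.47 with quantile and -2.28 with the stricter filter, and between -2.82 and -2.48 leaving out 1 array. The cause of these shifts was not tested. With the authors' deposited log2 values the medians of table members, not centred, were -1.21 for intronic (-1.73 here), -1.42 for antisense (-2.15) and -1.36 for intergenic (-2.82). With the stricter filter, which keeps fewer members, the median WT level was -0.12 for intronic, 0.21 for antisense and -0.23 for intergenic members.

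The direction of some named HuD-bound members, all but 1 of them uncalled, turned in some settings. With scaling on control probes these were mmu_circRNA_24032 (-0.53), mmu_circRNA_19513 (-0.76), mmu_circRNA_41725 (-0.62), mmu_circRNA_001389 (-0.68), mmu_circRNA_26318 (-0.41) and mmu_circRNA_27143, the called one (-0.36). With no scaling they were mmu_circRNA_21759 (0.18), mmu_circRNA_008347 (0.15) and mmu_circRNA_38252 (0.045). With quantile normalization they were mmu_circRNA_21759 (0.015), mmu_circRNA_41725 (-0.022) and mmu_circRNA_38252 (0.017), and after normexp and quantile normalization mmu_circRNA_21759 (0.045) and mmu_circRNA_41725 (-0.038). For mmu_circRNA_19513 the change was -0.069 with normexp and -0.010 with the scan as a random block, and leaving out 1 array it lay between -0.12 (without HuD KO replicate 2) and 0.174 (without HuD KO replicate 3). It was -0.002 for mmu_circRNA_41725 without HuD KO replicate 3. For mmu_circRNA_001389 it lay between -0.24 without HuD KO replicate 1 and 0.332 without HuD KO replicate 3.

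Samples with the same replicate number share only a number, since their deviations correlated at -0.01, -0.03 and -0.08. With the replicate block 10 HuD-bound members were called in place of 12, and 7987 probes in place of 8519. The check of host proteins in the probes was not run, because it needs protein sequences that were not used here. Signal over background limits the intergenic members of the lower table most, since 31 of 72 were not well above background on HuD KO replicate 1.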
